A study of Mus musculus with 2 samples.

Results

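Gpnmb-positive, C1q-high macrophages were described in injured mouse kidneys, as 391 of 19478 retained cells. They were chosen on their own counts: a barcode was retained if it had 500 or more unique molecular identifiers (UMIs, each marking 1 captured RNA molecule) from 200 or more genes, with mitochondrial UMIs making up no more than 50%. A retained cell was a member when C1qa, C1qb and C1qc summed to at least 10 UMIs, when Gpnmb had at least 2 UMIs, and when Cd3e, Slc12a1 and Cdh5, which mark T cells, the thick ascending limb and endothelium, had none. The control library held 110 members among 9452 retained cells, and the haplodeficient library held 281 among 10026.

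The study compared kidneys after ischaemia-reperfusion injury (IRI), made by clamping 1 renal artery, in Cdh5-CreERT2; Phd3f/+ mice and in Cre- mice, to ask how loss of prolyl hydroxylase 3 (Phd3, gene Egln3) from endothelium bears on repair of the kidney. Both groups received 4 tamoxifen injections after the injury and were collected on day 14, and both libraries belonged to batch 1. The Cre recombinase is driven by the endothelial Cdh5 promoter and acts only with tamoxifen, and 1 Phd3 allele is floxed, so the haplodeficient mice keep the other allele and their macrophages are not the target. Strain, age, whether the Cre- controls carry the floxed allele and how many animals went into a library were not given in the sources used here. Each group had 1 library, so no difference between genotypes was tested: every interval below is a 95% interval that covers counting error within these libraries only.

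GPNMB is a transmembrane glycoprotein that macrophages express when their lysosomes are loaded, and TREM2 is a receptor for lipids and apolipoproteins on the same cells. Macrophages that carry both, often called lipid-associated, take up lipid and dead-cell debris, break it down in acidic lysosomes with cathepsins and hydrolases, store or export the sterol, and secrete matrix and growth factors. In injured kidney such cells are known from the phase when damaged tubules are cleared and rebuilt.

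The retained cells of the whole series had a median of 9160 UMIs in the control library and 5861.5 in the haplodeficient library, of which a median of 10.2% and 2.72% were mitochondrial. The members were of more equal depth, with a median of 10479 UMIs and 2894.5 genes in the control library and 13281 UMIs and 3138 genes in the haplodeficient one. C1q-high cells with no Gpnmb UMI, the comparison cells below (Gpnmb-free cells, 710 control and 1082 haplodeficient), had only 5025 and 5284.5 UMIs at the median. The members' mitochondrial share was 3.87% and 1.98%. Between the libraries 28 retained barcodes were shared, and none of them was a member. Egln3 had 3 UMIs in the control members and 8 in the haplodeficient members, or 2.10 and 1.80 UMIs per 1000000 UMIs (CPM), and these 3′ counts do not check the deletion in endothelium.

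The name lipid-associated macrophage was held against markers that the rule did not use. Trem2 (ENSMUSG00000023992, chr17:48346401-48354147 on GRCm38) had a UMI in 110 of 110 control and 280 of 281 haplodeficient members. Fabp5 (ENSMUSG00000027533, chr3:10012548-10016607), a carrier protein for fatty acids, had one in 106 and 272. Arg1 (ENSMUSG00000019987, chr10:24915221-24927484), arginase 1, had one in only 31 control members (28.2%) and 75 haplodeficient members (26.7%), so the label holds for Trem2 and Fabp5 and covers a minority for Arg1. The 5 macrophage markers that the rule did not use were detected in both libraries, while the C1q genes, also on that list, were there by choice. Of 5 markers of melanocytes, another cell type that is rich in Gpnmb, none was detected in the control and 1 in the haplodeficient members. Ly6c2 of the classical monocyte was at 0 in the control, and the 6 monocyte markers summed to 80.5 and 64.2 CPM in members against 329 and 363 CPM in Gpnmb-free cells. Osteoclast markers summed to 714 and 609 CPM, mostly from Acp5 and Dcstamp, against 268 and 340 CPM in Gpnmb-free cells. Oscar was at 0 in members of both libraries.

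Members made up 12.9% of the 851 C1q-high control cells (10.7 to 15.4%, exact binomial) and 19.9% of the 1411 C1q-high haplodeficient cells (17.9 to 22.1%). The difference was 6.99 percentage points (3.80 to 10.1), and it lay between 4.53 and 7.81 points under the other settings tried, lowest (4.53, 0.810 to 8.004) in members with no UMI of 6 further genes of other cells named below. Of all retained cells, members were 1.16% (0.957 to 1.40%) and 2.80% (2.49 to 3.14%), and C1q-high cells as a whole were 9.003% and 14.1%. Cell shares here also depend on which cells survived dissociation, which was not tested.

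Among Gpnmb-positive cells, the libraries differed most in those richest in Gpnmb. Cells with 2 to 4 Gpnmb UMIs were 4.58% of C1q-high control cells (39 cells) and 4.18% of haplodeficient ones (59 cells). Cells with 20 to 99 UMIs were 2.35% (1.44 to 3.61%, 20 cells) and 7.16% (5.87 to 8.63%, 101 cells), and cells with 100 or more were 0.588% (0.191 to 1.37%, 5 cells) and 1.84% (1.21 to 2.69%, 26 cells). The share was thus alike near the threshold and larger in the haplodeficient library at both high ranges. The median member had 8 Gpnmb UMIs in the control (quartiles 3 and 17.5, highest 215) and 16 in the haplodeficient library (quartiles 6 and 40, highest 461), so the distributions overlapped over most of their length.

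**Figure D1:**
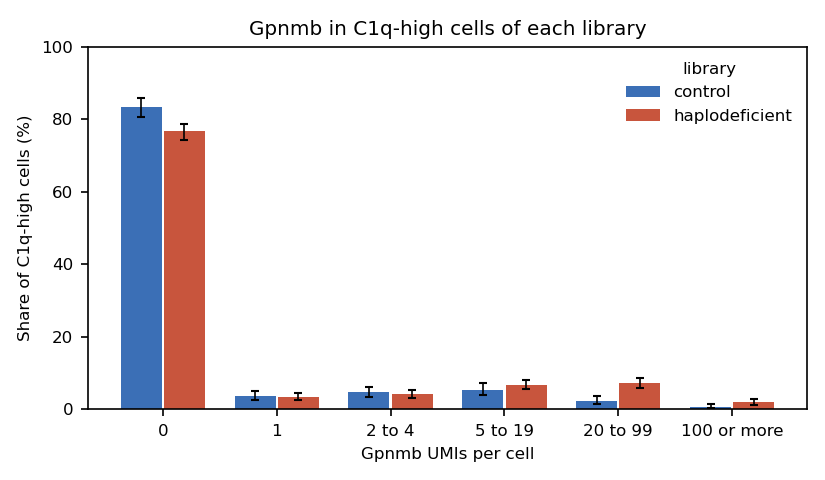
Share of C1q-high cells (vertical axis, percent) in each range of Gpnmb UMIs per cell (horizontal axis) for the control library (blue, 851 cells) and the haplodeficient library (red, 1411 cells); error bars are exact 95% binomial intervals for counting error. The bars are of similar height from 1 to 19 UMIs, and the red bars are higher at 20 to 99 (7.16% against 2.35%) and at 100 or more (1.84% against 0.588%).

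At the edge of the rule, 18 control and 31 haplodeficient members had exactly 2 Gpnmb UMIs, while 31 and 48 C1q-high cells had exactly 1 and stayed outside. The C1q limit decided little: 0 and 1 members had 10 or 11 C1q UMIs, and 2 and 1 cells with enough Gpnmb had 8 or 9. The requirement of no Cd3e, Slc12a1 or Cdh5 UMI removed 16 control and 61 haplodeficient cells that met the rest of the rule. Members held 62.9% of all Gpnmb UMIs of retained control cells and 76.8% of the haplodeficient ones. T cells, which should lack the gene, had a Gpnmb UMI in 1 of 162 control cells (0.617%) and 12 of 1122 haplodeficient cells (1.07%), at median depths of 2856.5 and 2738.5 UMIs.

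Because the members were picked for Gpnmb and C1q, their contrast with Gpnmb-free cells of the same library is a description of what travels with Gpnmb. A gene was counted as past the size rule when its log2 ratio, with 5 CPM added to both levels, was at least 1 in size and the Poisson intervals of both levels did not overlap. A gene was eligible if its mean level reached 50 CPM and its UMIs 30. In both libraries at once, 79 of 2730 eligible genes were higher past the rule (2.89%) and 114 were lower (4.18%), and over all eligible genes the log2 ratio had a median of −0.08 in each library. By direction alone, 42.4% of the genes eligible in the control library and 41.7% in the haplodeficient one were higher in members. Medians of gene lists run over the genes eligible in the library named, and counts over those eligible in both.

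Trem2 stood at 1331 CPM in control members and 1610 CPM in haplodeficient members, against 282 and 332 CPM in Gpnmb-free cells. The ratios were 4.72 (4.41 to 5.06) and 4.85 (4.64 to 5.08), alike within counting error. In cells thinned to 2000 UMIs, Trem2 was found in 87.2% and 90.7% of members, 41.7% and 44.2% of Gpnmb-free cells, and 0.730% and 0.447% of T cells. Trem2 therefore marked members by level more than by presence.

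Fabp5 showed the wider gap, with 3226 and 3673 CPM in members and 119 and 336 CPM in Gpnmb-free cells, or ratios of 27.0 (24.9 to 29.4) and 10.9 (10.5 to 11.4). A single haplodeficient Gpnmb-free cell held 991 of that group's 2545 Fabp5 UMIs. After thinning to 2000 UMIs, 86.2% and 85.3% of members had a Fabp5 UMI, against 12.9% and 15.3% of Gpnmb-free cells and 8.03% and 12.6% of T cells. Fabp5 was thus the marker that best separated members from the other C1q-high cells, among the 3 that the rule left free. Arg1 was 120 CPM (103 to 140) and 108 CPM (98.9 to 119) in members and 28.9 and 37.1 CPM in Gpnmb-free cells. Thinned, it was found in 12.8% and 11.5% of members and in 4.95% and 3.78% of Gpnmb-free cells.

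**Figure D2:**
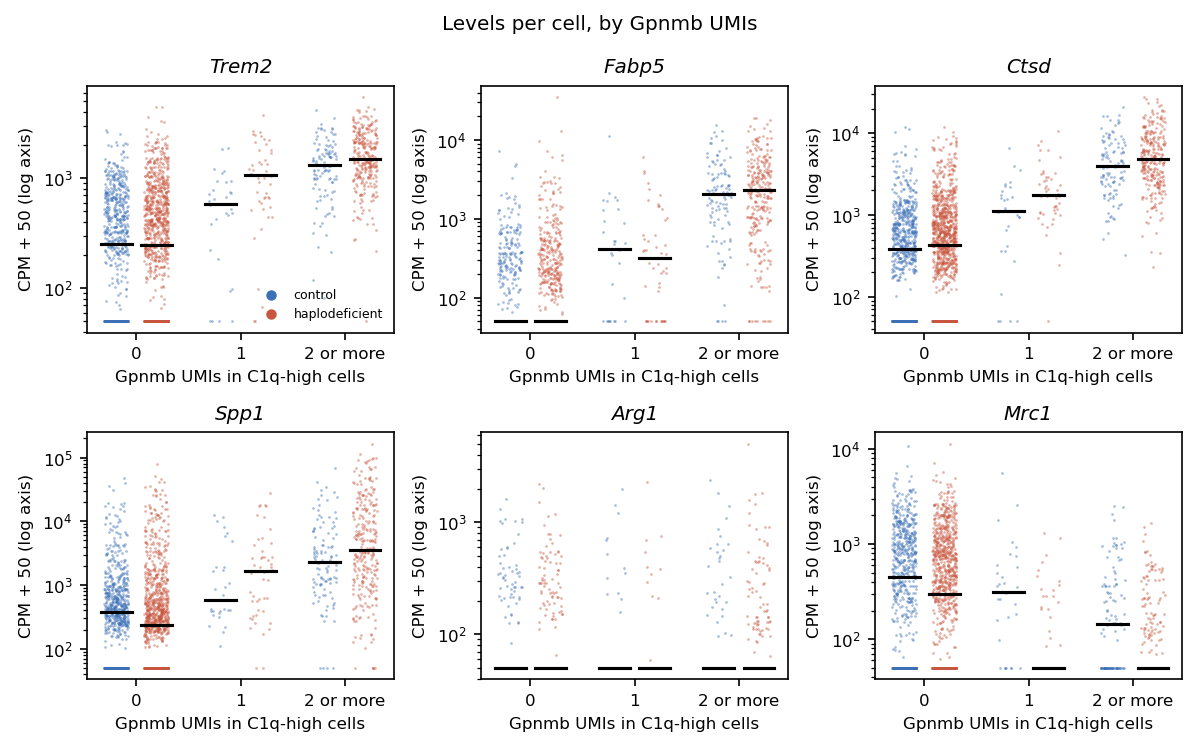
Level of 6 genes in single C1q-high cells (vertical axes, CPM with 50 added, log scale) by Gpnmb UMIs in the cell (horizontal axes; 0, 1, 2 or more, the last being the members), control in blue and haplodeficient in red; each point is 1 cell and black lines are medians. Median Trem2, Ctsd and Spp1 are highest in the members of both libraries, median Arg1 is 0 in every group, and Mrc1 is lower in members than in Gpnmb-free cells.

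Most eligible lipid genes lay above the Gpnmb-free level, but a gene low in Gpnmb-free cells could become eligible only by being high in members, so these counts describe the eligible genes and not the whole list. Of 54 genes on the list, 22 were eligible, 20 of them were higher in both libraries, and 10 passed the size rule in both (Lpl, Lrp1, Olr1, Fabp4, Fabp5, Hilpda, Lipa, Abca1, Abcg1 and Apoc2). The median log2 ratio was 1.13 in the control library and 1.01 in the haplodeficient one. These medians moved with the settings: with Gpnmb-free cells weighted to the members' depth they were 1.46 and 1.18, and with an eligibility minimum of 10 CPM they were 0.29 and 0.46.

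Uptake and binding genes were the furthest apart, with median log2 ratios of 1.79 and 1.4996, and the 7 genes eligible in both libraries were all higher. Fabp4, a second fatty acid carrier, was 133 and 173 CPM in members and 2.21 and 27.4 CPM in Gpnmb-free cells, and 36 and 113 members had a UMI of it. Olr1, a receptor for oxidised lipoprotein, was 106 and 129 CPM against 15.6 and 42.3 CPM. Lrp1, a receptor for lipoproteins and debris, was 298 and 317 CPM against 83.0 and 103 CPM. Cd36, a fatty acid translocase, was 366 and 228 CPM against 115 and 153 CPM, with ratios of 3.17 and 1.49, so it passed in the control library alone.

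Storage and breakdown genes followed with medians of 0.94 and 0.63. All 9 eligible genes were higher, and Hilpda and Lipa passed in both libraries. Hilpda, which holds back lipolysis at lipid droplets, was 148 and 193 CPM in members and 36.2 and 42.0 CPM in Gpnmb-free cells. Lipa, the lysosomal acid lipase, was 459 and 348 CPM against 153 and 158 CPM. Plin2, the coat protein of lipid droplets, was 673 and 487 CPM against 265 and 292 CPM, ratios of 2.54 and 1.67. Storage genes were thus higher in members of both libraries, with the larger ratios for Lipa and Plin2 in the control.

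Export genes that answer to liver X receptors had medians of 0.83 and 1.20, with 4 of 6 higher in both libraries. Abca1 and Abcg1, the sterol exporters, were 653 and 155 CPM in control members and 688 and 190 CPM in haplodeficient members. Gpnmb-free cells had 303 and 54.7 CPM in the control library and 281 and 72.2 CPM in the haplodeficient one for the same pair. Apoe, the apolipoprotein that carries the exported sterol, reached 36650.0 and 47437 CPM against 20569 and 21649 CPM, ratios of 1.78 and 2.19. None of the 11 sterol synthesis genes was eligible.

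Lysosome genes were mostly higher as well, with smaller medians, and the same limit on eligible genes holds for them and for the lists below. Of 67 genes, 50 were eligible, 41 were higher in both libraries, 5 were lower in both, and 11 passed the size rule in both (Ctsb, Ctsd, Ctsl, Hexa, Gusb, Psap, Grn, Acp5, Cd63, Cd68 and Atp6v0d2). The median log2 ratio was 0.56 and 0.55. Proteases had medians of 1.12 and 0.95, hydrolases and their cofactors 0.75 and 0.62, and membrane proteins with the proton pump 0.43 and 0.42.

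Ctsd (ENSMUSG00000007891), the aspartic protease cathepsin D, was 5930 CPM (5804 to 6057) in control and 6766 CPM (6689 to 6843) in haplodeficient members, against 832 and 788 CPM in Gpnmb-free cells. The ratios were 7.12 (6.87 to 7.39) and 8.59 (8.35 to 8.83). Its level ran from 276 to 20696 CPM over the 110 control members, with a median of 3896 CPM, and from 183 to 27616 CPM over the 281 haplodeficient members, with a median of 4836 CPM. Every member of both libraries had a Ctsd UMI, and the cell distributions of the libraries overlapped.

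Ctsb, a cysteine cathepsin, was 4200 and 4746 CPM against 1370 and 1515 CPM. Ctsl, cathepsin L, was 1515 and 2892 CPM against 543 and 710 CPM. Cst3, the secreted inhibitor cystatin C, went the other way, with 2535 and 3122 CPM in members and 3121 and 3716 CPM in Gpnmb-free cells. Among hydrolases, Acp5, the tartrate-resistant phosphatase, was 443 and 478 CPM against 75.8 and 112 CPM. Psap, the precursor of saposins that present lipids to hydrolases, was 3443 and 3133 CPM against 1302 and 1265 CPM. Atp6v0d2, a proton pump subunit of macrophages and osteoclasts, was 429 and 452 CPM against 53.9 and 34.1 CPM, ratios of 7.96 and 13.3. The general lysosomal membrane protein Lamp2 did not stand out, with 417 and 375 CPM in members and 428 and 375 CPM in Gpnmb-free cells.

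Promoters of lysosome genes are known to carry short sites for the factors Mitf, Tfeb and Tfe3, and such windows are printed here because the list held them often. The motif searched was TCACGTG or TCATGTG on both strands, so TCACGTGA matches on both strands at overlapping positions and TCATGTG reads CACATGA on the other. RefSeq windows on GRCm38.p6 reached from 250 bases before to 50 bases after each gene start. One of these motifs was in 21 of the 52 lysosome genes with a window (40.4%), against 8.40% of all 27025 genes with one and 12.3% of the 2182 eligible genes with one. It was in 5 of 13 protease genes, 8 of 19 hydrolase genes and 8 of 20 membrane and pump genes. Of the 79 genes higher in members of both libraries, 63 had a window and 6 of them held a motif (9.52%), and of the 114 lower genes 8 of 82 did (9.76%). Matches are letters in a window and say nothing of binding. The bases before the start are shown for cathepsin D and Lamp1, which hold several motifs, and for Trem2, which has none in its window, with motifs in capitals. Cathepsin D lies on the minus strand of chr7:142387828-142388077, Lamp1 on the plus strand of chr8:13158911-13159160 and Trem2 on the plus strand of chr17:48346151-48346400, and each is printed 5′ to 3′ along its gene. The 30 bases around the motif of Acp5, on the minus strand of chr9:22130670-22130699, show the other form.
Ctsd: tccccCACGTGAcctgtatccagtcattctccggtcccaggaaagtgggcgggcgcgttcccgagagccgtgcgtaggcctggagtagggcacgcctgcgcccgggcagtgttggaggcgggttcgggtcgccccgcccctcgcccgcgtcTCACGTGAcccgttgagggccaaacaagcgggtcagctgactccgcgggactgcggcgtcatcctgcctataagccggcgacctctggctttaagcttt
Lamp1: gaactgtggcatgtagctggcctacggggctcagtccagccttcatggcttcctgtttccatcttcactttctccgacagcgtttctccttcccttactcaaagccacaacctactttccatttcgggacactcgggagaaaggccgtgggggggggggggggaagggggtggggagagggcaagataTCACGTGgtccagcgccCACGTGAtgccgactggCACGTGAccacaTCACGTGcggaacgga
Trem2: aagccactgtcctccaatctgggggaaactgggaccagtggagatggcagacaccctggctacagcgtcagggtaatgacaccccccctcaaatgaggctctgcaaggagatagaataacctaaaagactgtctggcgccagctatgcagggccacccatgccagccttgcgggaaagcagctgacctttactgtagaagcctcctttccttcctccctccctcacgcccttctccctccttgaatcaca
Acp5: agtccagtgctCACATGAcccaaggggagg

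Among the factors themselves, Mitf was 240 and 199 CPM in members and 163 and 143 CPM in Gpnmb-free cells. Tfeb (24.5 and 29.1 CPM) and Tfe3 (32.2 and 36.7 CPM) were below the eligibility minimum, and in both libraries they were no higher than the 32.0 and 31.6 CPM (Tfeb) and 40.5 and 41.4 CPM (Tfe3) of Gpnmb-free cells. Of 13 genes of these factors and of lysosomal nutrient signalling, 8 were eligible, 6 were higher and 2 lower in both libraries, and 0 passed the size rule.

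Repair genes split by role. Of 69 genes, 39 were eligible, 25 were higher and 8 lower in both libraries, 9 passed higher (Mfge8, Anxa1, Lrp1, Igf1, Vegfa, Spp1, Timp2, Lgals3 and Arg1) and 2 passed lower (Mrc1 and Mgl2). Genes that clear dead cells had median log2 ratios of 0.65 and 0.51, growth factors and cytokines 0.28 and 0.20, and matrix genes 0.97 and 0.62. Genes of alternative activation, 4 of them eligible, had −0.71 and −1.38.

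Mfge8, a bridge between phosphatidylserine on dead cells and integrins on phagocytes, was 333 and 295 CPM in members and 38.5 and 36.5 CPM in Gpnmb-free cells. It came from 45 control and 101 haplodeficient members, and 1 cell supplied 28.2% and 13.9% of its UMIs. Mertk, a receptor for dead cells, was 197 and 217 CPM against 110 and 92.0 CPM. Igf1, insulin-like growth factor 1, was 447 and 544 CPM against 121 and 158 CPM, in 87 and 248 members. Lgals3, the lectin galectin-3, was 3266 and 3746 CPM against 732 and 1030.0 CPM. Timp2, an inhibitor of matrix proteases, was 686 and 822 CPM against 214 and 259 CPM.

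The mannose receptor Mrc1 and the lectin Mgl2, both typical of resident and alternatively activated macrophages, were lower in members. Mrc1 was 193 and 85.4 CPM against 520 and 431 CPM, and Mgl2 was 14.7 and 20.3 CPM against 334 and 415 CPM. Arg1 was higher, so the alternative activation genes did not move as 1 group. Arg1-positive members carried Mrc1 in 22 of 31 control cells (71.0%) and 30 of 75 haplodeficient cells, against 51.9% and 32.0% of members with no Arg1 UMI. Arg1-positive members were of similar or greater depth, with medians of 9702 and 15630.0 UMIs against 10999 and 12149.5.

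Antigen presentation and inflammation genes were the lower groups. All 7 MHC class II genes were eligible and lower past the rule in both libraries, with medians of −2.06 and −2.81. Cd74, the invariant chain, was 3817 and 2092 CPM in members and 13500 and 14670 CPM in Gpnmb-free cells. B cells also carry these genes, and the 6 B cell markers summed to 25.2 and 33.4 CPM in members against 127 and 112 CPM in Gpnmb-free cells, whose part in the MHC class II difference was not tested. Of 13 eligible proinflammatory genes 10 were lower in both libraries and 4 passed (Il1b, Ccl4, Ccl7 and Cd86), with medians of −0.68 and −0.80. Il1b, interleukin 1 beta, was 345 and 478 CPM against 1323 and 1447 CPM. All 12 eligible genes of the dissociation stress list were lower in both libraries, with medians of −0.67 and −0.91, and the part of dissociation in these differences was not tested.

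Outside the lists, Fbxo32, a ubiquitin ligase subunit, was 277 and 234 CPM in members and 17.7 and 16.1 CPM in Gpnmb-free cells, with ratios of 15.7 and 14.5. Syngr1, a vesicle membrane protein, was 361 and 507 CPM against 39.9 and 44.7 CPM. Pld3, a lysosomal nuclease, was 366 and 364 CPM against 81.7 and 82.1 CPM, and Gpr137b, a lysosomal membrane protein, was 218 and 185 CPM against 45.3 and 40.8 CPM. Lyz2, lysozyme, was 26012 and 29014 CPM against 8161 and 9261 CPM, and Ftl1, the ferritin light chain, was 17312 and 15427 CPM against 5762 and 7278 CPM. On the low side, Clu, clusterin, was 256 and 240 CPM against 2153 and 1407 CPM, although its control log2 ratio was 0.21 in cells thinned to 3000 UMIs, and Ccr2, the monocyte chemokine receptor, was 51.1 and 18.0 CPM against 219 and 204 CPM. Clu is also a gene of injured tubule, and injured tubule markers summed to 467 and 168 CPM in members against 1290 and 919 CPM in Gpnmb-free cells, whose part in the Clu difference was not tested.

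**Figure D3:**
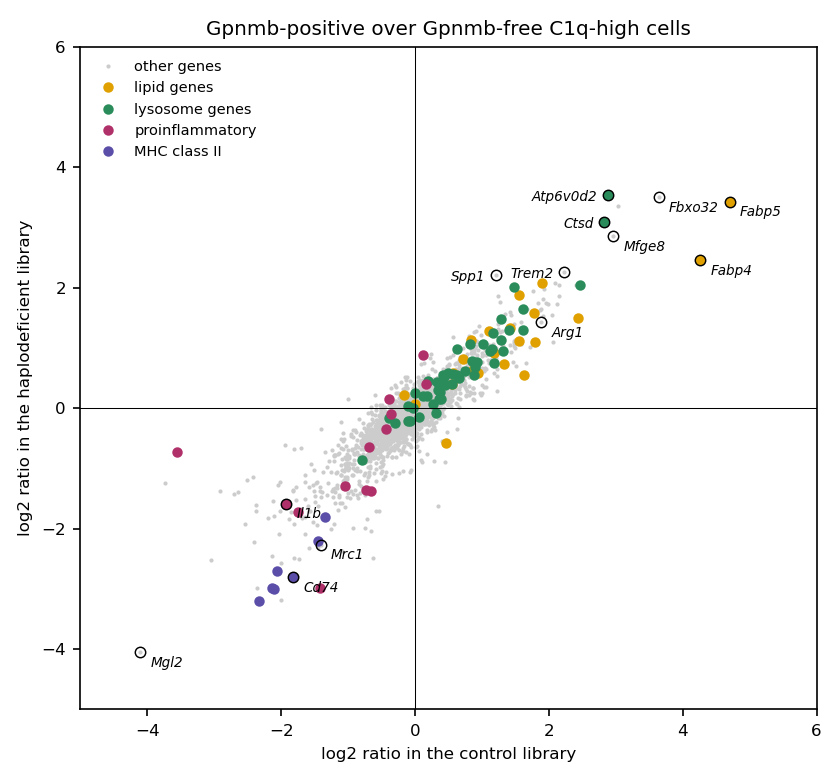
Log2 ratio of the members over Gpnmb-free C1q-high cells in the control library (horizontal axis) and in the haplodeficient library (vertical axis) for the 2730 eligible genes, with 5 CPM added; lipid, lysosome, proinflammatory and MHC class II genes are coloured and named genes are ringed. Fabp5, Fabp4, Fbxo32, Atp6v0d2 and Ctsd lie far to the upper right, and Mgl2 and the MHC class II genes lie to the lower left.

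Within the members, some genes were graded by Gpnmb. Ctsd was 2284, 4894 and 9318 CPM in control members with 2 to 4, 5 to 19 and 20 or more Gpnmb UMIs, and 2581, 4711 and 8795 CPM in haplodeficient ones. Fabp5 was 899, 2650 and 5314 CPM in the control library and 1247, 2531 and 4827 CPM in the haplodeficient one. Trem2 was 699, 1326 and 1761 CPM in the control library and 1110, 1449 and 1813 CPM in the haplodeficient one. Ctsd, Fabp5 and Trem2 were higher at each step in both libraries, and at 20 or more Gpnmb UMIs the libraries lay closer together than the steps between ranges.

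Several lipid genes were not graded in this way. Apoe was 38390.3, 43576 and 29268 CPM in the control library and 45152, 54748 and 44709 CPM in the haplodeficient one, highest at 5 to 19 Gpnmb UMIs in both. Plin2 was 462, 657 and 830.1 CPM in control members, a climb, and 465, 410 and 527 CPM in haplodeficient members, with no steady order. Lpl and Cd36 likewise climbed in the control library alone, with 502, 354 and 542 CPM for Lpl and 243, 198 and 237 CPM for Cd36 in the haplodeficient one. By Gpnmb UMIs, Abca1 and Lipa were higher at each step in both libraries. Abca1 was 518, 623 and 771 CPM in the control library and 438, 674 and 759 CPM in the haplodeficient one. Lipa was 235, 392 and 672 CPM in the control library and 260, 270 and 406 CPM in the haplodeficient one.

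Arg1 was not graded like Ctsd either. It was 157, 191 and 32.4 CPM in the control library and 200, 149 and 66.2 CPM in the haplodeficient one, lowest where Gpnmb was highest. Il1b was 659, 354 and 126 CPM in the control library and 759, 633 and 333 CPM in the haplodeficient one. H2-Aa, an MHC class II chain, was 2572, 1235 and 430 CPM in the control library and 1459, 1045 and 390 CPM in the haplodeficient one. Mrc1 was 366, 159 and 106 CPM in the control library and 121, 112 and 63.8 CPM in the haplodeficient one. In these UMI ranges its libraries thus differed most where Gpnmb was lowest.

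Cells with more Gpnmb UMIs were also deeper, with medians of 6408, 9922 and 18725 UMIs in the control library and 10147, 10986 and 16829 in the haplodeficient one. Grouped by Gpnmb CPM (below 500, 500 to below 2000, and 2000 or more), median depths were 10735, 8893 and 14917 UMIs in the control library and 12989, 11512 and 15020.0 in the haplodeficient one. Ctsd was then 2945, 5649 and 10363 CPM in the control library and 2952, 4699 and 10283 CPM in the haplodeficient one. Arg1 was 190, 114 and 40.7 CPM in the control library and 229, 121 and 37.9 CPM in the haplodeficient one. Mrc1 was 261, 190 and 107 CPM in the control library and 130, 100 and 51.8 CPM in the haplodeficient one. Its ratio between the libraries was then similar in every group. Apoe was 32420, 41723 and 32901 CPM in the control library and 37753, 50165 and 50239 CPM in the haplodeficient one. Control Lpl was 124, 602 and 572 CPM and control Abca1 517, 770 and 616 CPM, with no climb at the last step. Haplodeficient Abca1 climbed, with 506, 649 and 809 CPM. Lipa climbed in both libraries, with 234, 488 and 703 CPM in the control and 248, 284 and 447 CPM in the haplodeficient one. Ctsd thus kept its order in this grouping, and Arg1 was again lowest where Gpnmb was highest. Apoe, control Lpl and control Abca1 did not keep their order. The group with the most Gpnmb was still the deepest in both libraries, and the part of depth in these gradients was not tested.

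**Figure D4:**
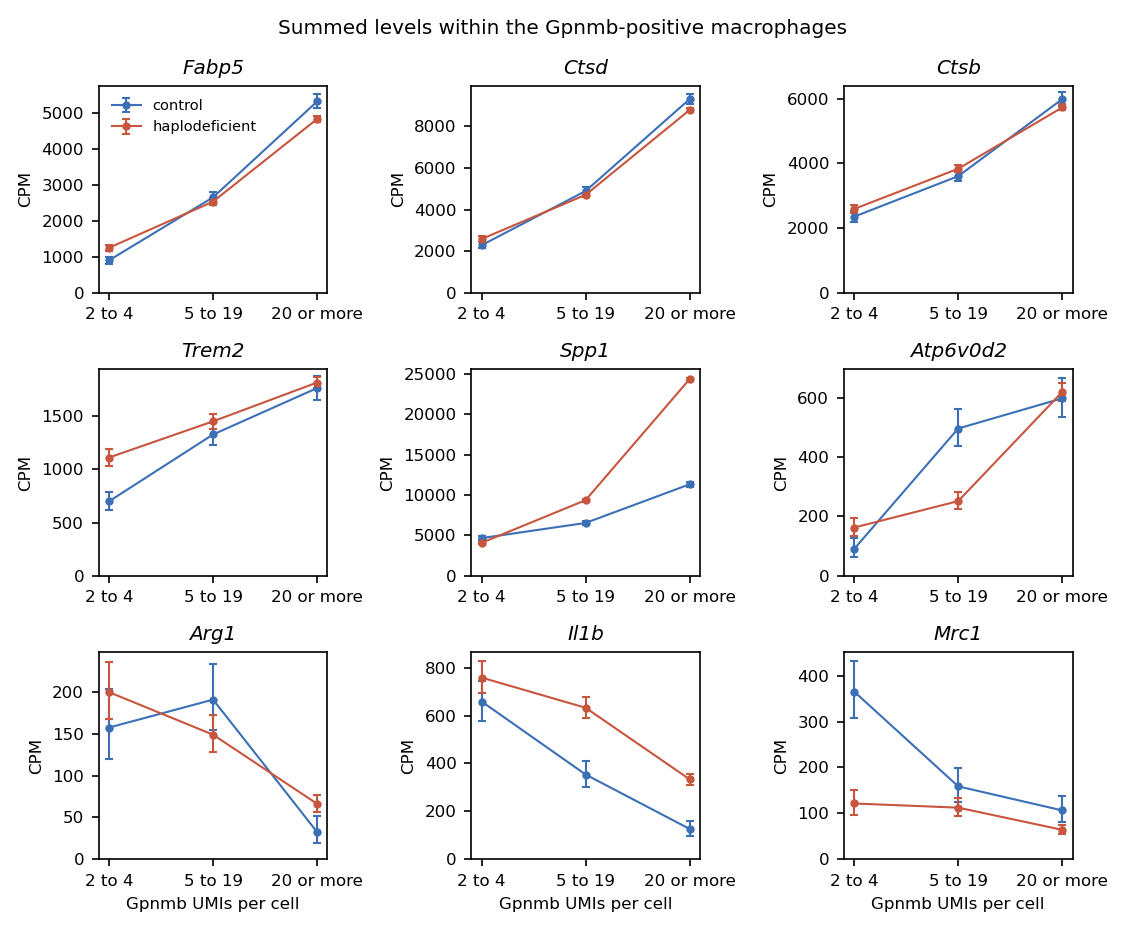
Summed level (vertical axes, CPM) of 9 genes in members grouped by Gpnmb UMIs per cell (horizontal axes; 39, 46 and 25 control cells in blue, 59, 95 and 127 haplodeficient cells in red), with 95% Poisson intervals. Fabp5, Ctsd, Ctsb and Trem2 climb in both libraries, Spp1 climbs further in the haplodeficient library, and Arg1 is lowest at 20 or more Gpnmb UMIs.

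Between the libraries, the lipid and lysosome lists had medians near 0, with genes on both sides. Of 2808 eligible genes, 17 were higher past the size rule in haplodeficient members (0.605%) and 43 were lower (1.53%), with a median log2 ratio over all eligible genes of −0.03. By direction alone, 1292 of the 2808 were higher (46.0%) and 1516 lower. The lipid list had a median of 0.07 over 24 genes, 14 higher and 10 lower, and the lysosome list 0.03 over 52 genes, 29 higher and 23 lower. None of these genes passed the rule, although the intervals of several single genes, such as Ctsl, Cd36 and Plin2, lie clear of a ratio of 1. The repair list had −0.13 over 39 genes, 16 higher and 23 lower, with Csf1, Gdf15 and Spp1 higher past the rule and Mrc1 lower.

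Gpnmb itself was 1600 CPM (1535 to 1666) in control and 2261 CPM (2217 to 2306) in haplodeficient members, a ratio of 1.41 (1.35 to 1.48). The ratio was 1.21 (1.15 to 1.27) for Trem2, 1.14 (1.10 to 1.18) for Fabp5 and 0.900 (0.755 to 1.08) for Arg1. When members were weighted to the same shares of the Gpnmb ranges, Fabp5 turned to 0.893. Ctsd differed by a ratio of 1.14, Ctsb by 1.13 and Psap by 0.910. Ctsl was the eligible lysosome gene with the largest ratio, 1.91 (1.82 to 2.00), or 1.51 at equal Gpnmb shares. Its single-cell medians were closer, at 958 and 1113 CPM, with highest cells of 15683 and 40024 CPM that held 14.6% and 11.4% of its UMIs. Of eligible lipid genes, Cd36 had the lowest ratio, 0.623 (0.560 to 0.694), followed by Pltp, a phospholipid transfer protein, at 0.639, the sterol ester hydrolase Nceh1 at 0.716 and Plin2 at 0.723 (0.670 to 0.781).

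Spp1 (ENSMUSG00000029304, chr5:104435118-104441050), which encodes the secreted matrix protein osteopontin, was 7909 CPM in control members and 17278 CPM (17156 to 17401) in haplodeficient members. The ratio was 2.18 (2.14 to 2.23), and 1.75 at equal Gpnmb shares. The Gpnmb-free cells had 3422 and 3712 CPM, a ratio of 1.08. T cells had 2160.4 and 1998 CPM, with highest cells of 27396 and 48907 CPM. Levels of single members spread widely, with a median of 2268 CPM and a highest of 69312 CPM in the control library and a median of 3548 CPM and a highest of 164824 CPM in the haplodeficient one. The first quartiles were 985 and 1154 CPM and the third quartiles 6361 and 14764 CPM, so the groups overlapped widely and the gap was larger higher up. By Gpnmb range, Spp1 was 4669, 6543 and 11321 CPM in the control library and 4087, 9365 and 24326 CPM in the haplodeficient one. Grouped by Gpnmb CPM as above, it was 5637, 9314 and 8318 CPM in control members, with no climb at the last step, and 5519.9, 8977 and 29604 CPM in haplodeficient members.

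The Spp1 ratio depended on which members entered. In members with no UMI of 6 genes of other cells (Cd79a, Lrp2, Umod, Pecam1, S100a8 and Cd3d; 51 control and 148 haplodeficient), Spp1 was 6434 and 7876 CPM, a ratio of 1.22. In members with a UMI of any of the 6, it was 8569 and 22999 CPM. The members with none were shallower, with medians of 7107 and 10349.5 UMIs, and 20 or more Gpnmb UMIs were found in 15.7% and 30.4% of them. Umod of the thick ascending limb had a UMI in 36 control members (32.7%) and 66 haplodeficient members (23.5%). The part of attached tubule cells, free RNA and depth in the Spp1 difference was not tested.

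Csf1 (ENSMUSG00000014599, chr3:107741048-107760469), the growth factor that macrophages themselves need, had 33 UMIs in 17 control members and 620 UMIs in 89 haplodeficient members. Its levels were 23.1 CPM (15.9 to 32.5) and 140 CPM (129 to 151), a ratio of 6.05 (4.26 to 8.86), against a ratio of 0.760 in Gpnmb-free cells. Without the top cell of each library it was 6.61, at equal Gpnmb shares 5.03, and in members with none of the 6 genes 3.68. It was 16.0, 24.1 and 27.0 CPM over the Gpnmb ranges in the control library and 37.0, 55.3 and 205 CPM in the haplodeficient one. Gdf15, a stress-induced cytokine, was 33.6 and 119 CPM, a ratio of 3.54 (2.63 to 4.86), in 16 and 89 members, and its ratio in Gpnmb-free cells was 1.47. In members with none of the 6 genes it was 27.2 and 164 CPM, a ratio of 6.05, from only 12 control UMIs and 276 haplodeficient UMIs. The Csf1 ratio of 3.68 in such members rested on 8 and 112 UMIs, and neither ratio has an interval here.

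Mrc1 was the repair gene lower past the rule, at 193 and 85.4 CPM, a ratio of 0.444 (0.379 to 0.520), in 63 of 110 and 96 of 281 members. Its ratio in Gpnmb-free cells was 0.828, and in members at equal Gpnmb shares 0.539. Among genes short of the rule, Axl, a receptor for dead cells, had a ratio of 0.572, Thbs1, thrombospondin 1, 0.580, the hyaluronan receptor Cd44 0.581, and the angiogenic factor Vegfa 0.687 (0.578 to 0.818).

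Of the proinflammatory genes, 2 of 12 eligible ones (Ccl4 and Tnf) were higher past the rule in haplodeficient members, and 4 of 15 in Gpnmb-free cells, with none lower past it. Over all eligible genes, 17 of 2808 were higher past the rule in members and 20 of 3185 in Gpnmb-free cells. Lower past it were 43 and 67. For proinflammatory genes the median log2 ratio was 0.49 in members over 12 genes, 10 higher and 2 lower, and 0.57 in Gpnmb-free cells, while in members thinned to 3000 UMIs it was 0.12. Ccl4, a chemokine, was 344 and 727 CPM in members, a ratio of 2.11 (1.92 to 2.33), and 2.08 in Gpnmb-free cells. Tnf, tumour necrosis factor, was 81.2 and 176 CPM, a ratio of 2.17 (1.78 to 2.66), and 1.79 in Gpnmb-free cells, but 1.33 in members with none of the 6 genes. Nfkbia, the inhibitor that NF-kappaB induces, had ratios of 2.07 and 1.51, and Bst2, an interferon target, 2.86 and 2.43.

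The MHC class II genes were lower in haplodeficient members, all 6 eligible ones, with a median of −0.70 and none past the rule. H2-Aa was 1273 and 726 CPM, a ratio of 0.570 (0.538 to 0.605), and Cd74 had a ratio of 0.548. In Gpnmb-free cells the list median was 0.12, and in members at equal Gpnmb shares it was −0.27, with Cd74 at a ratio of 0.745 and H2-Aa at 0.779.

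**Figure D5:**
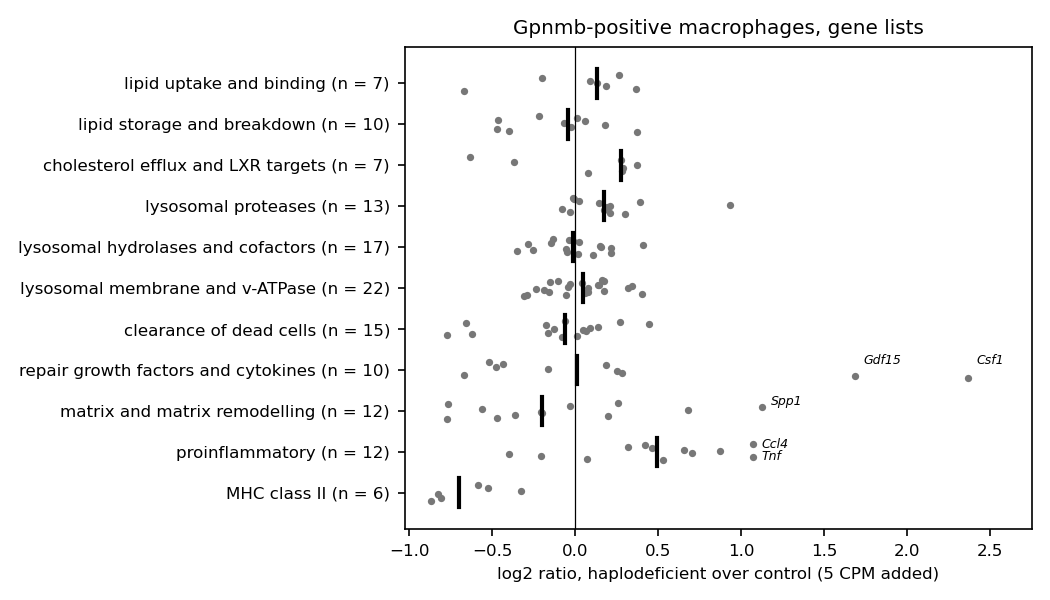
Log2 ratio of haplodeficient over control members (horizontal axis, 5 CPM added) for the eligible genes of 11 lists (vertical axis, number of genes in brackets); each point is 1 gene and black bars are list medians. Lipid and lysosome lists centre near 0, Csf1, Gdf15 and Spp1 lie to the right, the proinflammatory list is shifted right (median 0.49) and MHC class II lies left of 0 (median −0.70).

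Several other genes higher past the rule were higher in Gpnmb-free cells too. Cxcl14, a chemokine, was 214 and 625 CPM, a ratio of 2.92 (2.597 to 3.30), and 2.76 in Gpnmb-free cells. Gdpd3, a lysophospholipase D, was 30.8 and 167 CPM, a ratio of 5.43 (4.00 to 7.54), 5.80 in Gpnmb-free cells, and 3.04 and 62.1 CPM in T cells. Rpl29, a ribosomal protein, had ratios of 2.95 and 3.66. Stmn1, a microtubule protein of dividing cells, had 2.49 (2.02 to 3.09) and 1.68. Members with at least 2 UMIs of Mki67 and Top2a together were 7 of 110 (6.36%, 2.597 to 12.7%) and 34 of 281 (12.1%, 8.53 to 16.5%), against 3.099% and 5.91% of Gpnmb-free cells, and the members' intervals overlapped. Members were the deeper cells: thinned to 2000 UMIs, Mki67 was found in 0.917% and 4.66% of members and 3.298% and 3.46% of Gpnmb-free cells, which turns the control order.

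Some calls rested on few cells. Igkc, an antibody light chain, was 8.40 and 276 CPM, but 1 haplodeficient cell held 99.4% of its UMIs, and without the top cell of each library the ratio was 0.271. Hist1h2ap, a histone of dividing cells, came from 5 control and 24 haplodeficient members, and 1 control cell held 69.2% of its UMIs.

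The 43 lower genes included mitochondrial transcripts and genes of the proximal tubule. Kap, a kidney androgen-regulated protein, was 710 and 2.25 CPM, Slc34a1, the phosphate transporter, 116 and 2.93 CPM, and Gpx3, a secreted glutathione peroxidase, 593 and 89.7 CPM. Proximal tubule markers summed to 387 and 16.5 CPM in members, 684 and 292 CPM in Gpnmb-free cells, and 4770 and 646 CPM in barcodes with at most 100 UMIs, which hold free RNA. The part of free RNA in these 3 genes was not tested beyond those values. Dcstamp, a fusion protein of macrophages and osteoclasts, was also lower past the rule, at 249 and 115 CPM, a ratio of 0.464, in 46 and 89 members.

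Scrublet scores marked 10 control members (9.09%) and 21 haplodeficient members (7.47%) as likely doublets, close to the 8.17% and 8.69% of Gpnmb-free cells. From the markers of other cell types, free RNA was estimated at 8.28% and 5.30% of the members' UMIs and 16.9% and 21.4% of those of Gpnmb-free cells. Only markers with no more UMIs than free RNA alone would give were used, which keeps higher values out of the estimates. Single markers ranged from 1.68 to 37.6% in control members and from 0 to 94.9% in haplodeficient members, so these estimates are rough.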

How the data were processed

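Single-cell RNA was measured in 2 mouse kidney libraries, 1 per group, with droplet-based 3′ chemistry (version 3.1), per the labels' protocols. The authors deposited raw UMI counts for each gene in each barcode, with no filter on cells. Per the file headers Cell Ranger 4 made them, on mm10 per the submitters' processing notes. The aligner settings and annotation were not given in the sources used here. The libraries held 134190236 UMIs in 1342632 barcodes (control) and 114668145 UMIs in 1430043 barcodes (haplodeficient). The protocols mention cell hashing, but the features used here were all genes. Of 32285 gene identifiers, 32158 (99.6%) matched GENCODE M21 on GRCm38, the source of gene coordinates.

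Members and gene lists were chosen with earlier results of these data known. Counts were summed over cells of a population and scaled to 1000000 (CPM), with Poisson intervals for levels, exact binomial intervals for shares conditional binomial intervals for ratios, and both exact share intervals combined (square-and-add) for a difference of shares. With 1 library per group no test was made. UMIs of 1 cell are not independent of each other, so these intervals are narrower than the spread between cells. The size rule was tried on simulated counts drawn independently of each other. These had no UMIs clumped in single cells, so they do not show how the rule behaves in these data.

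Named genes were the 4 markers; in each list up to 4 eligible genes with the largest mean log2 ratio to Gpnmb-free cells and up to 3 with the largest between libraries; the 15 highest and 10 lowest in both libraries (mitochondrial and ribosomal genes left out); the 10 highest and 10 lowest between libraries; and markers of other cell types at 50 CPM or more. Tfeb, Tfe3, Lamp2 and Egln3, and single genes listed as passing the size rule, were named outside it, after their values were seen. Not every gene that the rule picked is described above. Of the markers of other cell types, Acta2 (1.40 and 78.9 CPM) and Col1a2 (9.80 and 50.7 CPM) were left out and were higher in haplodeficient members. A single haplodeficient cell held 71.1% of the Col1a2 UMIs. Miox, Acsm2, Krt8, Krt18, Cdh6 and Aqp2 were left out too and were lower. Members with likely doublets, scored by Scrublet in scanpy at 0.8% per 1000 cells, were kept, and left out in an alternative. For shares, cells were thinned to 2000 UMIs, which left out 1 control member. Ranges of Gpnmb levels with equal shares in both libraries were chosen after seeing the data. Python 3.11.15, scanpy 1.11.5, numpy 2.4.6, scipy 1.17.1, pandas 2.3.3 and matplotlib 3.10.9 were used. Some items are not reported here.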

Additional observations from a re-analysis of the deposited data

Results flagged for a closer look

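For 1 list and 6 genes, the members lay above the Gpnmb-free cells in 1 library and below them in the other, and this difference between the libraries was not tested. The median log2 ratio of the monocyte genes was 0.41 in the control library and −0.11 in the haplodeficient one. Pltp had log2 ratios of 0.47 (control) and −0.58 (haplodeficient), and S100a6, a calcium-binding protein, had 0.63 and −0.34. Hist1h2ap had −2.33 and 0.24, and Stard13 had −0.75 and 0.21. Kap had 0.15 and −3.24, and Hspb1, a small heat shock protein, had 0.34 and −1.62. Kap is a gene of the proximal tubule, whose markers summed to 387 and 16.5 CPM in members, and its part in these values was not tested.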

How the results depend on the processing

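No paired analysis was possible because each group had 1 library. Leaving out a replicate was therefore not run. Which differences belong to genotype, animal or library cannot be told apart. Depth limits genes under 50 CPM, which enter list values and counts only at the 10 CPM minimum below. Of the main results 186 recomputed values stayed within their limits and 31 moved. Of the other values, for single genes and further lists, 5542 stayed, 1876 moved and 36 reversed in sign. Over all values, moves were most frequent with depth weighting (228 of 318) and in cells thinned to 3000 UMIs (307 of 480). With no UMI of the 6 genes 270 of 480 moved, and the cause of these changes was not tested. The limits were the interval of the share difference, the medians of the single-gene counting intervals for a list, and a fixed fold change for counts of genes. For a single gene they were the counting interval of its ratio.

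Counts of genes higher in haplodeficient members (17) became 29 in thinned cells (3000 UMIs), 29 in members with no UMI of the 6 genes, 81 at a gene minimum of 10 CPM and 6 at 200 CPM. Counts of lower genes (43) became 27 with at least 5 Gpnmb UMIs, 26 with 20 CPM added, 193 at 10 CPM and 10 at 200 CPM. Against Gpnmb-free cells, the 79 higher genes became 125 at 10 CPM and 36 at 200 CPM. The 114 lower genes became 72 with no UMI of the 6 genes, 382 at 10 CPM, 29 at 200 CPM and 234 with comparison cells weighted to the members' depth. The lower and higher minimums change how many genes are eligible.

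The lipid median between libraries (0.07) was −0.084 at equal Gpnmb shares. Against Gpnmb-free cells the control lipid median (1.13) was 0.87 in thinned cells, 0.29 at 10 CPM, 1.00 with every cell given equal weight and 1.46 with depth weighting. The haplodeficient one (1.01) was 0.89 without likely doublets, 0.65 with no UMI of the 6 genes, 0.46 at 10 CPM, 0.91 with equal weight and 1.18 with depth weighting. The lysosome medians (0.56 and 0.55) were 0.90 and 0.76 at 200 CPM, and the haplodeficient one 0.68 with depth weighting. The control repair median (0.76) was 0.51 in thinned cells, 0.51 with no UMI of the 6 genes and 0.14 at 10 CPM, and the haplodeficient one (0.26) was 0.88 at 200 CPM.

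Medians of some other lists changed sign, and their main medians are given in brackets. Between libraries, members with no UMI of the 6 genes gave −0.23 for Trem2, Fabp5 and Arg1 (0.19) and −0.061 for the lipid-associated genes (0.19). They gave −0.23 for lipid uptake (0.13) and −0.0089 for interferon (0.53). Lipid uptake was also −0.038 with at least 5 Gpnmb UMIs and −0.064 at equal Gpnmb shares, where the monocyte list (−0.196) was 0.0025. Against Gpnmb-free cells, resident genes (−0.43 and −0.38) were 0.11 and 0.40 with depth weighting. Haplodeficient monocyte genes (−0.11) were 0.13 at 200 CPM and 0.19 with equal weight. Haplodeficient genes of dividing cells (0.21) were −0.0083 with no UMI of the 6 genes and −0.024 with depth weighting.

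Among single genes against Gpnmb-free cells, thinned cells gave log2 ratios of 0.17 for Hbegf (haplodeficient), 0.25 for Gdf15, 0.32 for Plac8, 0.21 for Clu and 0.29 for Plet1 (control). Gdf15 (control) was 0.63 with no UMI of the 6 genes and 0.062 with equal weight. Gpx3 (haplodeficient) was 0.31 in thinned cells and 0.64 with no UMI of the 6 genes. Igkc (haplodeficient) was −0.24 without doublets, −0.30 with at least 5 Gpnmb UMIs, −3.22 in thinned cells and −0.11 with no UMI of the 6 genes.

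Between libraries, Igkc was −0.52, −0.99 and −0.84 under the first 3 of these settings, and Cp was 0.92 in thinned cells. Hspb1 was 0.76 without doublets, 1.66 in thinned cells and 1.41 with no UMI of the 6 genes, where Timp3 was 0.21, Lcn2 0.70 and Erbb4 0.52.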
